A study of Mus musculus with 5 samples.

Results

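Complement components and receptors were examined in bone marrow stromal cells of 2 fetal origins. The 9 genes, taken by name from the 30046 features of the counts, were listed in 2 sets. The 6 listed as stromal were C3, C4b, Cfb, C1s1, C1ra and Serping1, and the 3 listed as leukocyte were Cfp, C3ar1 and C5ar1. All 9 had reads, and 8 passed the filter on low values (a CPM, the read count scaled for depth, of 10 or more in 2 or more libraries), C3ar1 being the exception. The libraries were made from cells sorted for high Cxcl12-GFP and for tdTomato out of femurs at P21, after a single tamoxifen dose at E12.5. Every mouse carried GFP on a Cxcl12 allele, written Cxcl12(GFP/+), and the Cre reporter R26R(tdTomato/+). The lineages differed in the driver, Dlx5(CreER/+) for fetal perichondrial cells (Dlx5, 3 libraries) and Fgfr3-iCreER for fetal chondrocytes (Fgfr3, 2 libraries, numbered 2 and 3 in the labels). Littermates were pooled by genotype, distal growth plates were removed, and tdTomato marks descendants of whichever cells had an active driver at the pulse. By the study's methods the lineages were sequenced on different instruments with different read lengths, although the series description names 1 instrument, so sequencer and lineage cannot be told apart.

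Complement is a cascade of plasma and tissue proteins that marks surfaces for uptake by phagocytes. In the classical pathway C1q carries the proteases C1r and C1s, and C1s cleaves C4 and C2. In the alternative pathway factor B joins C3b to form a C3-cleaving enzyme that properdin stabilises, and the small fragments C3a and C5a act on receptors of myeloid cells. The liver makes most of the circulating proteins, while fibroblasts and other stromal cells also transcribe C3, C4, factor B, C1r, C1s and the C1 inhibitor encoded by Serping1. Properdin and the anaphylatoxin receptors are best known from neutrophils, monocytes and macrophages.

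Transcripts of C1r, C1s, their inhibitor, C4b and factor B were higher in the Dlx5 libraries, and those of properdin and the C5a receptor were higher in the Fgfr3 libraries. C4b, Cfb, C1s1, C1ra and Serping1 were called higher in Dlx5, with log2 fold changes between -1.22 and -3.36, and Cfp and C5ar1 were called higher in Fgfr3, at 1.42 and 2.66. Fold changes are Fgfr3 over Dlx5, and a gene was called where edgeR's quasi-likelihood test gave an adjusted p under 0.05 and the log2 fold change was beyond 1 in size. Thus 5 of 8 were called higher in Dlx5, where 13.1% of the 10093 genes tested were, and 2 of 8 higher in Fgfr3, where 16.4% were. In either direction 7 of 8 were called, against 29.5% of all genes tested. C3, the central component of the cascade, was listed as stromal, had its higher values in Fgfr3 and did not pass the fold threshold. The median log2 fold change of the 8 was -1.57, beside 0.01 over all genes tested. In bulk samples, fewer cells of a type and less RNA per cell cannot be told apart.

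Markers of stromal cells and of leukocytes also differed between the libraries. The 12 stromal markers listed for the sorted cells, among them Cxcl12, Lepr and Kitl, were all detected, and their summed level was 42902 to 44702 normalized CPM in Dlx5 but 18307 and 10754 in Fgfr3 replicates 2 and 3. Of the 12, 9 were called higher in Dlx5 and 1, Foxc1, higher in Fgfr3. The 10 pan-leukocyte markers summed to 406 to 526 in Dlx5 and to 1358 and 2800 in Fgfr3, and all 10 were called higher in Fgfr3. Neutrophil markers summed to 2549 to 3184 in Dlx5 and to 7112 and 17517 in Fgfr3 with 10 of 10 called, and macrophage markers to 131 to 164 and to 234 and 415 with 4 of 7 tested called. The 7 erythroid markers summed to 18510 to 37811 in Dlx5 and to 14259 and 21188 in Fgfr3. In Fgfr3 replicate 3 that was above the stromal sum of the same library. None of the 7 was called higher in Fgfr3 and 2, Hbb-bt (-1.27) and Hba-a1 (-1.18), were called higher in Dlx5. Of 5 B-cell markers tested, 2 were called higher in Fgfr3 and 1, Ebf1, higher in Dlx5, and the 1 endothelial marker tested, Pecam1, was not called. Over all genes tested, 16.4% were called higher in Fgfr3 and 13.1% higher in Dlx5. Some called markers could pass the filter only with the Fgfr3 libraries. These were Ly6g and Cxcr2 (neutrophil), Adgre1, Cd68 and Ccr2 (macrophage) and Igll1 (B cell). The filter therefore favoured the direction of their calls, and with a CPM minimum of 1 all of these were still called. No marker of these 7 lists was at 0 in any library. The part of these differences in the results below was not tested, and the values are repeated where they move with a gene.

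In the GRCm38 assembly (mm10), C1ra (chr6:124512405-124523443, plus strand) and C1s1 (chr6:124530345-124542359, minus strand) lie side by side with 6901 bases between them. Cfb (chr17:34856374-34862518) and C4b (chr17:34728380-34743882) lie on the minus strand of the same stretch of chromosome 17, and C3 (chr17:57203970-57228136, minus strand) lies farther along it. Serping1 is at chr2:84765387-84775444, Cfp at chrX:20925454-20931555, C3ar1 at chr6:122847138-122856161 and C5ar1 at chr7:16246743-16259540, all on the minus strand. Counts were summed over the exons of each gene. Promoters of 6 of the 9 genes were in the RefSeq table (GRCm38.p6), and the others were C4b, Cfb and Serping1. The 200 bases before the start are shown for C1s1 and C3, which were listed together but differed in direction, and for Cfp and C5ar1, the leukocyte genes that were called. Capitals mark matches to the motifs named after them.
C3, chr17:57228137-57228336, minus strand: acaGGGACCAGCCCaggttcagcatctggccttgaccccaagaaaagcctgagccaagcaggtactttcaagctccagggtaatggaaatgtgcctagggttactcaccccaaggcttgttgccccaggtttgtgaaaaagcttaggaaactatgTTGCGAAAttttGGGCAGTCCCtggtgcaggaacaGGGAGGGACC
C1s1, chr6:124542360-124542559, minus strand: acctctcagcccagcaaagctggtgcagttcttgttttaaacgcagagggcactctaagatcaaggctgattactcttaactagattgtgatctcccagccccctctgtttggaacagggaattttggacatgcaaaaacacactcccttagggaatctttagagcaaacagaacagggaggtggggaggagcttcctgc
Cfp, chrX:20931556-20931755, minus strand: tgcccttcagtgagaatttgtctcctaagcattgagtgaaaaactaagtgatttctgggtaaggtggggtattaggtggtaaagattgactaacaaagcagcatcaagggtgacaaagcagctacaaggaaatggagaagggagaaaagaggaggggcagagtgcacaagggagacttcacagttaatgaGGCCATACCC
C5ar1, chr7:16259339-16259538, minus strand: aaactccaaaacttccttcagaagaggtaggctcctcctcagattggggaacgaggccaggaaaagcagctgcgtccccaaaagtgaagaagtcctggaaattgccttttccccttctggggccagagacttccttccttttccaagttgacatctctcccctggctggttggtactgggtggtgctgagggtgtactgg

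Short motifs were sought on both strands in the 250 bases before the start, for PU.1 (GAGGAAG), STAT (TTCNNNGAA), C/EBP (TTGCNNAA), EBF (CCCNNGGG), NF-kB (GGG and CC with 5 bases of any kind between them) and IRF (GAAA repeated after 2 bases of any kind). The C/EBP letters occurred in 2 of the 6 promoters, at position -45 from the C3 start and at -242 from the C1s1 start, outside the bases shown, and 9.6% of all 32851 promoters held them. The NF-kB letters occurred before the starts of C3 (4 matches, of which the first 2 overlap), Cfp and C3ar1, and 45.8% of all promoters held them. C1s1 has 2 starts in the table, and the one shown had no NF-kB match while the other had 1. No match to the PU.1, STAT, IRF or EBF letters was found in these windows, where 10.6%, 7.0%, 3.0% and 11.8% of all promoters held one. C5ar1 and C1ra held none of the motifs sought. These are matches of letters only.

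Serping1, whose product C1 inhibitor blocks C1r and C1s, was by far the most abundant of the 9 transcripts. Its normalized CPM was 4358, 4513 and 4784 in Dlx5 replicates 1 to 3, and 1281 and 1139 in Fgfr3 replicates 2 and 3. All Dlx5 libraries were above both Fgfr3 libraries, and the replicates of each lineage were close together. This gave a log2 fold change of -1.91 ± 0.18 (SE, edgeR adjusted p = 0.000275). Scaled for transcript length, its level was 5894 ± 428 TPM (SD, n = 3) in Dlx5 and 1793 ± 261 (n = 2) in Fgfr3. It ranked between 13 and 16 among all protein-coding genes in the Dlx5 libraries, and 50 and 57 in the Fgfr3 libraries. Serping1 made up 77.2% to 79.2% of the summed TPM of the 9 genes in Dlx5, and 72.9% and 64.7% in Fgfr3.

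The proteases that Serping1 restrains followed nearly the same pattern. C1ra, encoding C1r, had a normalized CPM of 610, 575 and 679 in Dlx5 and of 154 and 119 in Fgfr3. C1s1, encoding C1s, had 288, 245 and 280 in Dlx5 and 86.8 and 57.0 in Fgfr3. For both genes every Dlx5 library was above every Fgfr3 library, and Fgfr3 replicate 3 was the lowest. The log2 fold change was -2.19 ± 0.19 for C1ra (SE, edgeR adjusted p = 0.000189). That of C1s1 was -1.91 ± 0.21 (SE, edgeR adjusted p = 0.000565). In TPM, C1ra stood at 626 ± 42.6 (SD, n = 3) and 158 ± 38.9 (n = 2), and C1s1 at 260 ± 8.75 and 79.7 ± 28.1. The ratios among the 3 genes moved less than their levels. C1ra over C1s1 was 2.23, 2.47 and 2.54 in Dlx5 and 1.87 and 2.19 in Fgfr3, all on the TPM scale. Serping1 over the sum of both proteases was 6.32, 7.16 and 6.49 in Dlx5 and 6.93 and 8.44 in Fgfr3.

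C4b, the substrate of C1s, was lower in Fgfr3 by a smaller factor. Its normalized CPM was 933, 853 and 896 in Dlx5 and 342 and 423 in Fgfr3. The lineages did not overlap, but within Fgfr3 it was replicate 3 that was higher, the opposite order from the proteases. The log2 fold change was -1.22 ± 0.17 (SE, edgeR adjusted p = 0.00121). In TPM it was 472 ± 6.26 (SD, n = 3) against 230 ± 19.9 (n = 2). C4b carried the smallest difference of the 5 genes called higher in Dlx5.

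Cfb, encoding factor B, the catalytic subunit of the alternative pathway, had the largest difference of the 9 genes. Its normalized CPM was 172, 150 and 204 in Dlx5 and 21.7 and 12.3 in Fgfr3. The lowest Dlx5 library was several times above the highest Fgfr3 library. Its log2 fold change was -3.36 ± 0.30 (SE, edgeR adjusted p = 0.000219). On the TPM scale it was 186 ± 24.1 (SD, n = 3) against 21.0 ± 9.40 (n = 2), and its rank among protein-coding genes moved from between 640 and 863 to 5567 and 7480. Cfb overlaps the annotated gene Gm20547 on the same strand over 79.5% of its exon bases, and Gm20547 took 0, 0 and 13 counts in Dlx5 and 534 and 396 in Fgfr3. With the counts of both genes summed, an alternative added after seeing the data, the log2 fold change was -2.82, still past the thresholds. Such a sum cannot restore reads that were counted for neither gene.

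C3 differed from the other genes of its list. Its normalized CPM was 74.2, 65.1 and 70.9 in Dlx5 and 97.3 and 159 in Fgfr3. Both Fgfr3 libraries were above all Dlx5 libraries, and replicate 3 was well above replicate 2. Its log2 fold change was 0.87 ± 0.21 (SE, edgeR adjusted p = 0.0136), under the fold threshold. Without Fgfr3 replicate 2 it was 1.26 and passed both thresholds, without Fgfr3 replicate 3 it was 0.53, and with scaling by library size alone it was 1.05 and passed. In TPM, C3 was 40.9 ± 0.638 (SD, n = 3) in Dlx5 and 84.6 ± 23.6 (n = 2) in Fgfr3. The ratios of C3 to its partners, taken within each library, therefore differed between the lineages. The TPM ratio of C3 to Cfb was 0.237, 0.239 and 0.191 in Dlx5 and 2.46 and 7.08 in Fgfr3, and that of C4b to C3 was 11.4, 11.8 and 11.4 against 3.18 and 2.41. Cfb overlaps Gm20547 and C4b shares sequence with the gene C4a, so both ratios depend on how shared reads were counted.

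**Figure D1:**
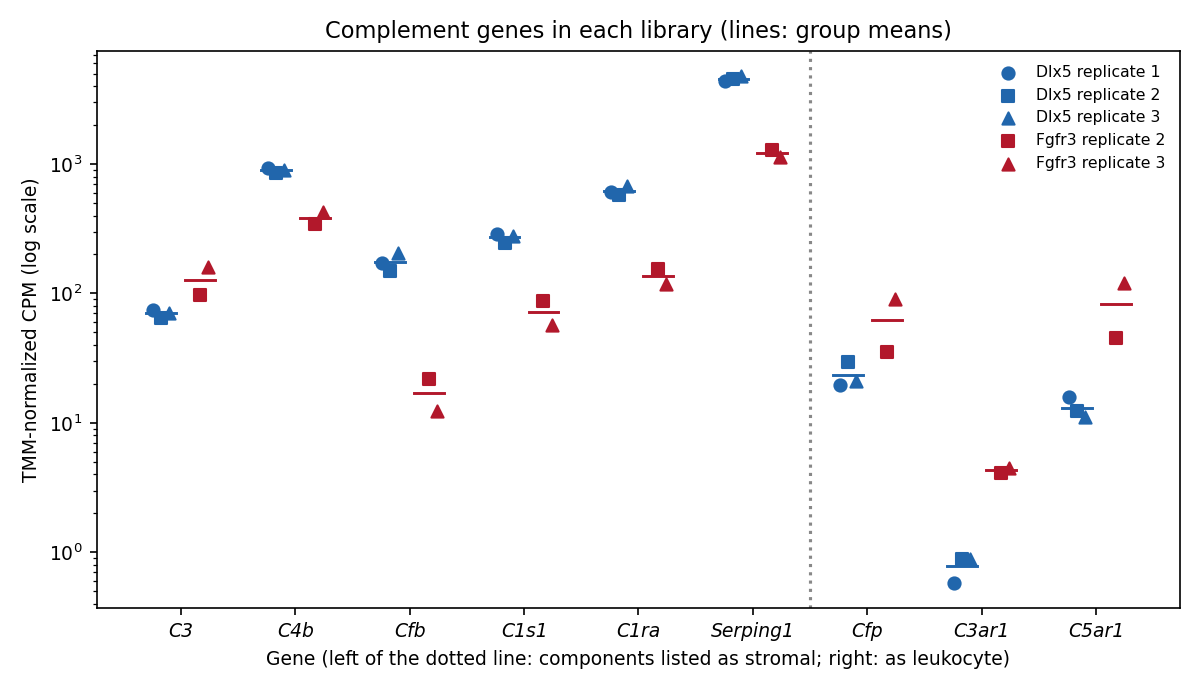
Normalized CPM (log scale) of the 9 complement genes in each of the 5 libraries, with Dlx5 in blue, Fgfr3 in red, and lines at the group means. The lineages do not overlap for any of the 9, with C4b, Cfb, C1s1, C1ra and Serping1 higher in Dlx5 and C3, Cfp, C3ar1 and C5ar1 higher in Fgfr3.

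Among the genes listed as leukocyte, C5ar1, the C5a receptor that draws neutrophils and monocytes, had the largest difference. Its normalized CPM was 16.0, 12.3 and 11.0 in Dlx5 and 45.3 and 120 in Fgfr3. Both Fgfr3 libraries were above all Dlx5 libraries, and replicate 3 was far above replicate 2. In the test its log2 fold change was 2.66 ± 0.39 (SE, edgeR adjusted p = 0.00179), and it was 1.85 without Fgfr3 replicate 3 and 3.27 without replicate 2, called in each. In TPM it was 15.3 ± 2.62 (SD, n = 3) against 108 ± 63.8 (n = 2).

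Cfp, encoding properdin, which stabilises the alternative convertase, had a normalized CPM of 19.7, 29.7 and 20.9 in Dlx5 and of 35.5 and 90.1 in Fgfr3. The lineages did not overlap, but Fgfr3 replicate 2 lay close above Dlx5 replicate 2. The log2 fold change was 1.42 ± 0.38 (SE, edgeR adjusted p = 0.0197). This call rested on few libraries: without Fgfr3 replicate 3 the log2 fold change was 0.66 (edgeR adjusted p = 0.110), without Fgfr3 replicate 2 it was 2.02, and without Dlx5 replicate 1 or 3 the adjusted p was 0.0620 and 0.0521. In TPM, Cfp was 41.0 ± 11.8 (SD, n = 3) and 122 ± 68.6 (n = 2).

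C3ar1, the C3a receptor, was scarce in both lineages, with 17, 18 and 21 counts in Dlx5 and 239 and 272 in Fgfr3. Its normalized CPM was 0.584, 0.892 and 0.879 in Dlx5 and 4.09 and 4.52 in Fgfr3. The groups were well apart, and unlike C5ar1 it was nearly equal in the Fgfr3 replicates. It failed the filter of the main test, which it could only have passed through the Fgfr3 libraries. In the fit with no filter beyond 1 count in all, its log2 fold change was 2.45 ± 0.46 (SE, edgeR adjusted p = 0.00534), past the thresholds. Of the 17120 genes of that fit, 13.3% were called in the Fgfr3 direction and 23.3% in either.

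For all 9 genes the lineages did not overlap, 5 with Dlx5 higher and 4 with Fgfr3 higher. Over all genes tested, 34.1% were free of overlap with Dlx5 higher and 34.8% with Fgfr3 higher, 68.9% in all, so the separation is common in these data.

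The difference between the Fgfr3 libraries ran along the same 2 sets, except for C3, C4b and C3ar1. The normalized CPM of replicate 3 over that of replicate 2 was 0.567 for Cfb, 0.657 for C1s1, 0.770 for C1ra and 0.889 for Serping1. It was 1.24 for C4b and 1.63 for C3. It was 2.54 for Cfp and 2.66 for C5ar1, and 1.10 for C3ar1. Of the 12 stromal markers, 11 were lower in replicate 3, with ratios from 0.332 to 1.14, and all 10 pan-leukocyte markers were higher, from 1.26 to 3.56. The ratio of C3 lay inside the range of the pan-leukocyte markers and above that of every stromal marker. The ratio of C4b lay just below the former range and above the latter. The ratios of C1ra, Serping1 and C3ar1 were above those of 11 of the 12 stromal markers, all but Foxc1, and below those of the pan-leukocyte markers.

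**Figure D2:**
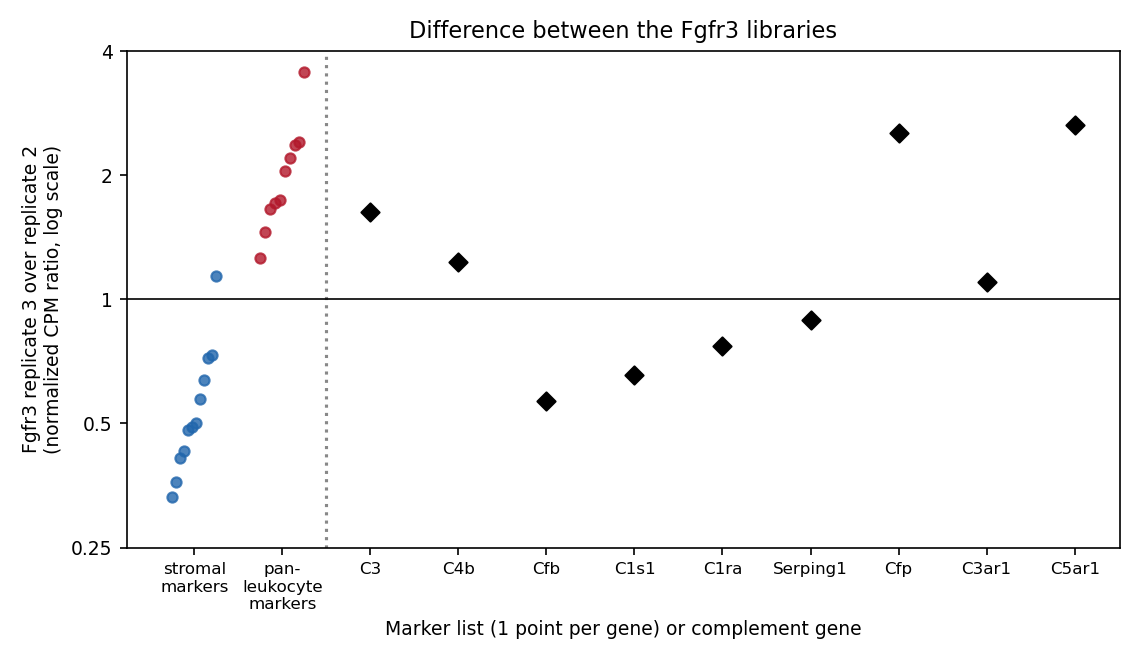
Ratio of normalized CPM in Fgfr3 replicate 3 to that in replicate 2 (log scale), with 1 point per gene for 12 stromal markers (blue), 10 pan-leukocyte markers (red) and each of the 9 complement genes (black). C3 at 1.63, Cfp at 2.54 and C5ar1 at 2.66 sit within the span of the pan-leukocyte markers, and Cfb at 0.567 and C1s1 at 0.657 sit among the stromal markers. C1ra at 0.770, Serping1 at 0.889 and C3ar1 at 1.10 lie above all stromal markers but Foxc1 (1.14) and below the pan-leukocyte markers.

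Set against the summed stromal markers of the same library, the stromal genes separated into 3 patterns, given as values without a test. Cxcl12, whose reporter was used for sorting, was the largest part of that sum. It had 22364 to 23577 normalized CPM in Dlx5 and 8488 and 6104 in Fgfr3. The study reports Cxcl12, Lepr, Kitl, Adipoq, Lpl and Ebf3 as higher in Dlx5 cells. Pdgfrb (-0.23, not called) and Foxc1 (2.82) behaved otherwise, so the patterns depend on the markers chosen. Serping1 per 1000 CPM of stromal markers was 97.5, 102 and 112 in Dlx5 and 70.0 and 106 in Fgfr3, so the lineages overlapped. C1s1 was 6.43, 5.54 and 6.53 against 4.74 and 5.30, and C1ra was 13.7, 13.01 and 15.8 against 8.43 and 11.0, in both cases without overlap but by a smaller factor than before. Cfb remained apart at 3.85, 3.38 and 4.75 against 1.19 and 1.15. C4b was 20.9, 19.3 and 20.9 against 18.7 and 39.3, with the Fgfr3 libraries on either side of Dlx5. C3 was 1.66, 1.47 and 1.65 against 5.32 and 14.8, higher in Fgfr3 and further apart than before.

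The leukocyte genes were set against the summed pan-leukocyte markers in the same way. C5ar1 per 1000 CPM of those markers was 30.3, 26.9 and 27.1 in Dlx5 and 33.3 and 42.9 in Fgfr3, still higher in Fgfr3 but close. Cfp was 37.5, 64.7 and 51.5 against 26.1 and 32.2, so its order was the reverse of that of its CPM. C3ar1 was 1.11, 1.95 and 2.16 against 3.01 and 1.61, with overlap. C3 on the same scale was 141, 142 and 174 in Dlx5 and 71.6 and 56.7 in Fgfr3, below Dlx5, so the direction of C3 depended on which markers it was set against.

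**Figure D3:**
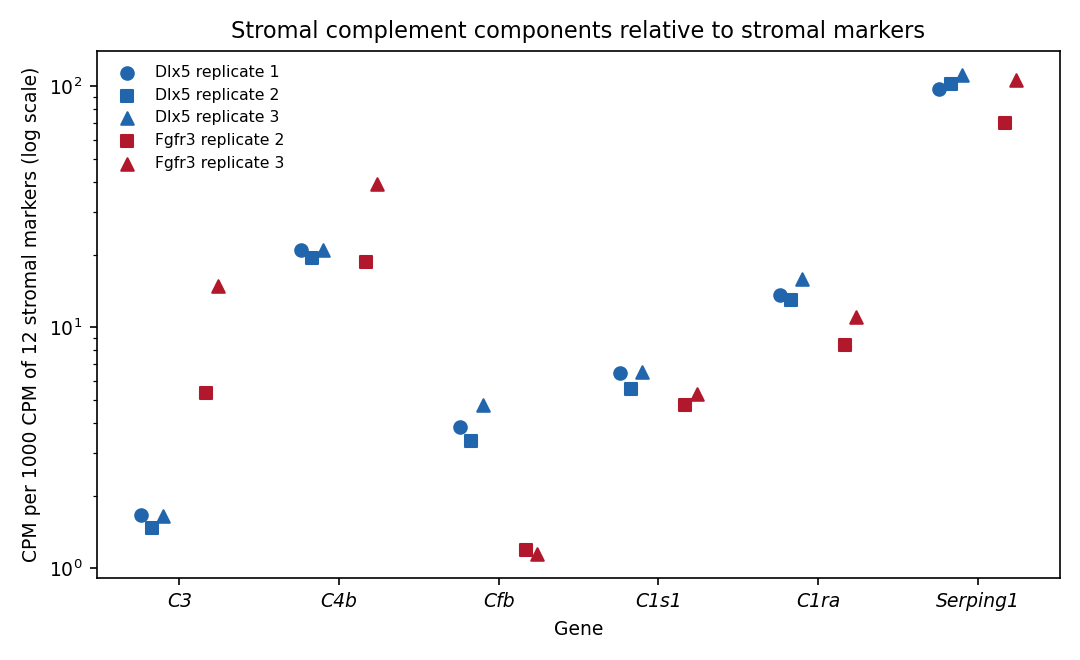
CPM of the 6 stromal complement genes per 1000 CPM of the 12 stromal markers of the same library (log scale), with Dlx5 in blue and Fgfr3 in red. Serping1 and C4b overlap between the lineages, Cfb lies lower in Fgfr3 (1.19 and 1.15) than in Dlx5 (3.38 to 4.75), and C3 lies higher (5.32 and 14.8 against 1.47 to 1.66).

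Profiles over the 5 libraries were compared by Euclidean distance on centred log2 CPM, as a description. C1s1 and C1ra (0.351), C1ra and Serping1 (0.362) and C1s1 and Serping1 (0.370) were the closest pairs among the 8 genes tested. C3 was closer to Cfp (0.896) than to C4b (2.27), the nearest gene of its own list. Outside complement, the genes closest to the mean profile of the 6 stromal genes were Pon3 (0.090), Amotl1 (0.110), Prr12 (0.123), Mettl7a1 (0.148) and Rpl9 (0.149). Those closest to the mean of Cfp and C5ar1 were Cyp4f18 (0.168), Arhgdib (0.203), Sema4a (0.224) and Fpr1 (0.251).

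Of 48 other genes of the complement system, 44 had a row in the counts and 22 passed the filter. Of these, 7 were called higher in Fgfr3 and 7 higher in Dlx5, where 16.4% and 13.1% of all genes were, and the median log2 fold change was -0.05. Mbl2, C8a, C8b and Vsig4 were not analysed here. Among recognition molecules, C1qb (1.01 ± 0.29, SE), C1qc (1.17 ± 0.25) and the ficolin Fcnb (1.80 ± 0.32) were called higher in Fgfr3 and the collectin Colec11 (-1.99 ± 0.32) higher in Dlx5, of 7 tested. C1qa, the third chain of C1q, had a log2 fold change of 0.77 ± 0.23 and was not called, and C1qb lost its call in several alternatives. C1qc fell under the fold threshold without Fgfr3 replicate 3 (0.97) and with a GC trend removed (0.98). Macrophages are a known source of C1q, and their markers summed to 131 to 164 normalized CPM in Dlx5 and to 234 and 415 in Fgfr3. Their part in the C1q values was not tested. C1qb had a normalized CPM of 17.3, 23.2 and 13.1 in Dlx5 and 28.4 and 43.8 in Fgfr3.

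Among the other proteases, C1rb (-1.56 ± 0.25), C1s2 (-2.54 ± 0.41) and C2 (-2.02 ± 0.62) were called higher in Dlx5 and none of the 4 tested higher in Fgfr3. The other one tested, C1rl, the next gene to C1ra, had a log2 fold change of -0.54 ± 0.26. C1rb and C1s2, like Colec11, passed the filter only through the Dlx5 libraries, where they were high, so the filter fixed the direction of any call. In the fit with no filter beyond 1 count their log2 fold changes were -1.56 and -2.54, and that of Colec11 was -1.997, all past the thresholds. C1rb and C1s2 are near copies of C1ra and C1s1 and share sequence with them. C2, which is cleaved by C1s and pairs with C4b, varied within Dlx5, at 25.4, 108 and 98.4 normalized CPM against 24.6 and 13.6 in Fgfr3. It lost its call without Dlx5 replicate 2 (edgeR adjusted p = 0.0799) or 3 (0.0640), and without Fgfr3 replicate 2 (0.0667) or 3 (0.181). Gm20547 overlaps 46.9% of the exon bases of C2 on the same strand, and with the counts of both summed, also added after seeing the data, C2 was not called (-1.52, edgeR adjusted p = 0.0713). Cfd, encoding the protease that activates factor B, had 5, 11 and 13 counts in Dlx5 and 604 and 17 in Fgfr3, so its excess was in 1 library. Of the terminal components and their relatives, C6 alone passed the filter, with a log2 fold change of 0.19 ± 0.25.

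Regulators were split. Cd55 (2.43 ± 0.50) and Cd59a (1.498 ± 0.45), which protect cell surfaces from the convertases and from the membrane attack complex, were called higher in Fgfr3. Both could pass the filter only with the Fgfr3 libraries, where they were high, so the filter favoured that direction. With a CPM minimum of 1 their log2 fold changes were 2.41 and 1.48, past the thresholds. Dlx5 replicate 1 had more of both than the other Dlx5 libraries, at 16.4 against 5.996 and 5.02 normalized CPM for Cd55 and 23.0 against 8.23 and 8.45 for Cd59a. Without that library the log2 fold changes were 3.18 and 2.17, and Cd59a lost its call when any other library was left out, with edgeR adjusted p between 0.0650 and 0.0892. Clu, encoding the fluid-phase inhibitor clusterin (-1.34 ± 0.24), and Csmd1 (-1.42 ± 0.26) were called higher in Dlx5. Thus Clu differed in the same direction as Serping1.

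Of the receptors, Itgam (2.37 ± 0.33) and Itgb2 (2.29 ± 0.30), the chains of complement receptor CR3 of myeloid cells, were called higher in Fgfr3 and Cd93 (-1.16 ± 0.18) higher in Dlx5, of 4 tested. Gm49368 overlaps 68.7% of the exon bases of Itgam on the same strand. It took 19, 0 and 0 counts in Dlx5 and 0 and 38 in Fgfr3, and these were not summed with Itgam. With a library left out, the log2 fold change of Cd93 ran from -1.32 to -0.89, so it did not always pass the fold threshold. By TPM, the most abundant complement genes in either lineage included Serping1, Clu, C1ra, C4b, Fcnb, Colec12, C1s1, Itgb2 and Cfb. Fcnb (110 and 431 TPM in Dlx5 and Fgfr3) and Itgb2 (37.3 and 205) were the ones among them higher in Fgfr3. Colec12, a scavenger receptor of the collectin family, had a log2 fold change of -0.99 ± 0.17, just under the fold threshold. All complement genes together took 0.932%, 1.09% and 1.05% of the TPM in Dlx5 and 0.540% and 0.501% in Fgfr3. Without Serping1 the share was 0.392%, 0.468% and 0.442% in Dlx5 and 0.342% and 0.341% in Fgfr3, a smaller gap.

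**Figure D4:**
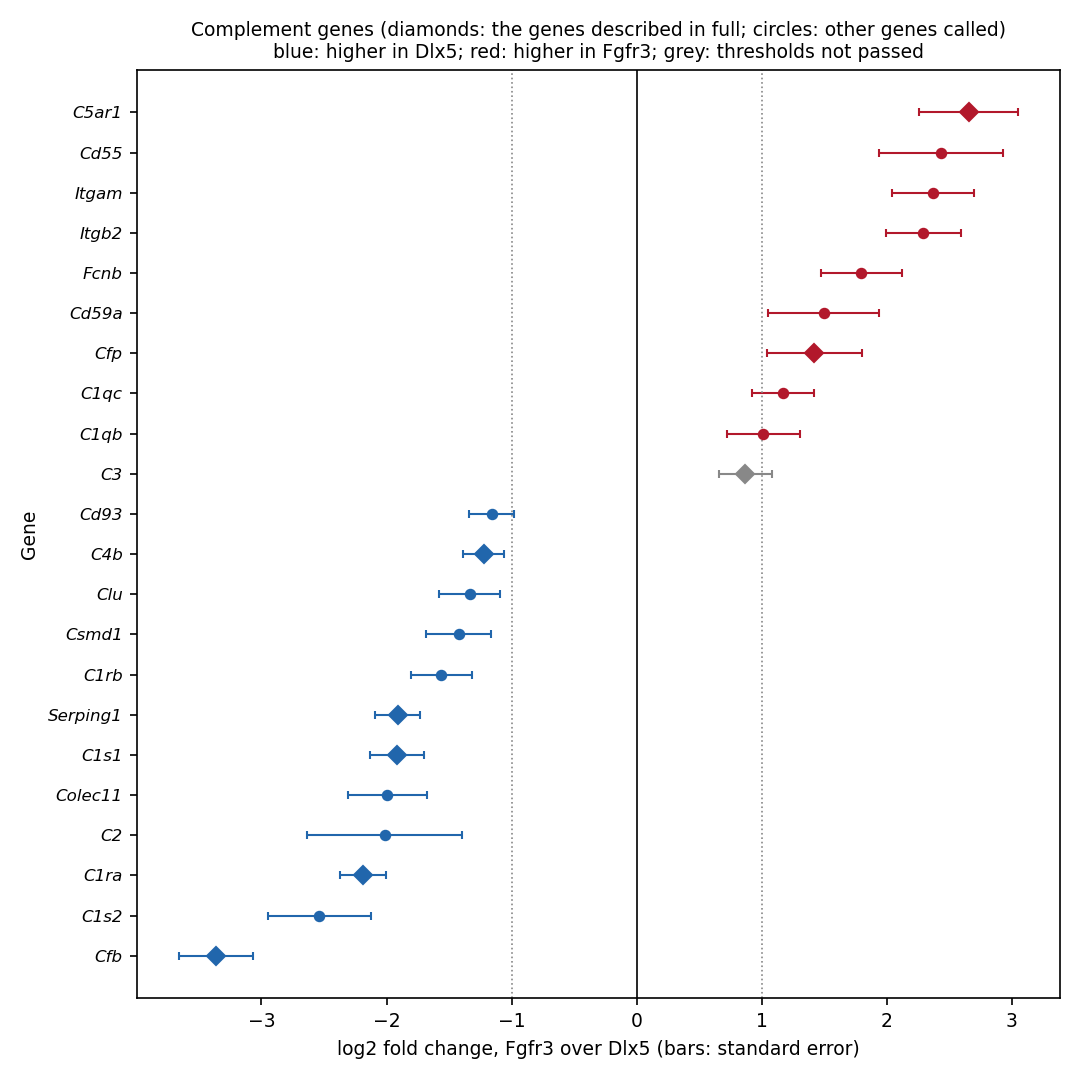
Log2 fold change, Fgfr3 over Dlx5, with its standard error for the 8 genes tested of the 9 (diamonds) and the 14 other complement genes called (circles), ordered by value, with dotted lines at the fold threshold. Cfb (-3.36) is the lowest and C5ar1 (2.66) the highest, and C3 (0.87) is the only one of the 8 diamonds inside the dotted lines.

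Receptors and transcription factors known to control complement transcription were examined as a list of 15, of which 14 were tested. Osmr (-1.19 ± 0.19), Il6st (-1.93 ± 0.22), Il1r1 (-1.15 ± 0.23), Irf1 (-1.14 ± 0.27) and Nfkb1 (-1.37 ± 0.16) were called higher in Dlx5, 5 of 14 where 13.1% of all genes were. The median log2 fold change of the 14 was -0.75, beside 0.01 over all genes tested. Osmr and Il6st form the oncostatin M receptor, and Il6st also transmits interleukin-6 signals. Il6st had a normalized CPM of 499, 534 and 470 in Dlx5 and of 159 and 103 in Fgfr3, a wide gap. Cebpb, encoding a C/EBP factor of acute-phase genes, was the 1 of 14 called higher in Fgfr3, where 16.4% of all genes were, and had a log2 fold change of 7.63 ± 0.40. Cebpb passed the filter only through the Fgfr3 libraries, and in the fit with no filter beyond 1 count its log2 fold change was 7.63. It had 69, 92 and 148 counts in Dlx5 and 48968 and 53574 in Fgfr3, with a GC content of 67.2%. With a trend on GC content removed from each library the log2 fold change was 6.99. Without Fgfr3 replicate 3 the log2 fold changes of Irf1 and Il1r1 were -0.79 and -0.76, under the fold threshold. With scaling by library size alone they were -0.95 and -0.97, also under it. Irf1 was at -0.93 without Dlx5 replicate 3, where its normalized CPM was 859 against 594 and 577 in Dlx5 replicates 1 and 2.

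Most of the nearest protein-coding neighbours that were tested and lay outside the complement lists were not called. Over all genes tested 29.5% were called in either direction, so this does not set the neighbours apart. Gpr108 beside C3 (-0.13 ± 0.13), Ube2l6 beside Serping1 (-0.35 ± 0.25), Elk1 beside Cfp (-0.52 ± 0.31), Inafm1 beside C5ar1 (-0.12 ± 0.22) and Necap1 beside C3ar1 (0.04 ± 0.14) were not called. Nelfe, 1 base from Cfb, was at 0.72 ± 0.16, the opposite direction from Cfb, and C2 on its other side was called in the direction of Cfb. Foxj2 beside C3ar1 was called higher in Fgfr3, at 1.15 ± 0.24. That was the direction of C3ar1, which was not tested in the main fit and was called only under weaker filters. C5ar2, the other C5a receptor and the neighbour of C5ar1, was at 8.34, 3.07 and 2.89 normalized CPM in Dlx5 and 4.96 and 3.88 in Fgfr3, with overlap and below the filter.

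Shared sequence limits some of these counts. Of windows of 50 bases in the exons, 50.8% of those of C1ra, 35.1% of C1s1, 34.6% of C4b and 73.0% of Cfb also occur in transcripts of other genes, mainly C1rb, C1s2, C4a and Gm20547. None of those of C3, Serping1, Cfp, C3ar1 and C5ar1 do. With counts summed over each pair, the log2 fold changes were -2.16 for C1ra, -1.94 for C1s1 and -1.21 for C4b, all still called. How reads matching both genes of a pair were handled was not given in the sources used here. If they were counted for neither gene, summing cannot restore them, so their part was not tested. By the study's methods read length also differed between the lineages, which such sums cannot address. The antisense gene Gm16567 overlaps 18.4% of the exon bases of C1s1, and the strand setting of the counting was not given in the sources used here.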

How the data were processed

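The authors sequenced 5 libraries of amplified cDNA, aligned the reads to mm10 with TopHat2 2.0.13 and Bowtie2 2.2.1 (per the labels, which also name HTSeq) and deposited raw counts per gene. Deposited normalized and transformed tables were not used. Totals were 22035650 to 32563758 counts in Dlx5 and 56355203 to 58166285 in Fgfr3, where 3 counts equal 0.0516 to 0.136 CPM (counting error only). Gene types and exons came from GENCODE M21, which held 29996 of the 30041 Ensembl identifiers.

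Protein-coding genes and reporters reaching a CPM of 10 in 2 libraries entered edgeR 4.0.16 in R 4.3.3 (TMM, quasi-likelihood test, Benjamini-Hochberg over all tested), calling as the study did. The study's exact test and DESeq2 1.42.0 were alternatives. Normalized CPM divides by the TMM-scaled sum of tested genes, and TPM uses union exon length. The fit was tested on simulated data. The 9 genes, marker lists and other lists were chosen with earlier results of these data known. Genes named are these 9, called genes of the lists, the 10 complement genes highest by TPM, neighbours and the 5 closest profiles. Some genes that these rules or lists name are not reported here. No library pair agreed within sampling noise.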

Additional observations from a re-analysis of the deposited data

How the results depend on the processing

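Among the 8 complement genes tested and the other genes called, no direction reversed under any setting that gave a value (other scaling, filters, tests and gene types, removal of a GC trend, a 2-fold test, the replicate block, counts summed with a partner, each library left out). The 5 of the 9 genes called higher in Dlx5 were 4 under the 2-fold test (glmTreat), where C4b lost its call. The 2 called higher in Fgfr3 were 1 under that test and 1 with the replicate block, and 1 to 3 with a library left out. The other complement genes called were 3 (higher in Dlx5) and 4 (higher in Fgfr3) under the 2-fold test in place of 7 and 7, and 5 to 7 and 4 to 6 with a library left out. The 5 inducers higher in Dlx5 were 2 under the 2-fold test, 3 with library size only and 3 to 5 with a library left out, and the 1 higher in Fgfr3 was 0 to 2. C3ar1 was fitted only under the 2 weaker filters (2.44 and 2.45). Without either Fgfr3 library, Cebpb has only 1 library above the filter and is not tested.

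The replicate numbers shared by the lineages mark different mice, and deviations of same-numbered libraries correlated at 0.124 and -0.0486. With the number as a block, Cfp lost its call (1.18, edgeR adjusted p = 0.0874), as did C1qb. Where an Fgfr3 library is left out, the lone one is assumed to vary like the Dlx5 libraries. With the longest transcript as length, 8 of 18 TPM means of the 9 genes moved by more than 1 SD. Library size alone shifts the median log2 fold change of all genes from 0.01 to 0.19. C3ar1, with 17 to 21 counts in Dlx5, is the gene of the 9 with the fewest counts.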
